A study of Mus musculus with 68 samples.

Results

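Zfp979 is a zinc finger gene in a cluster of related genes on the distal part of mouse chromosome 4, and its level divided the mammary tumours of a backcross into 2 groups. Of 68 arrays of tumours, 56 had a mean over the control probe sets for mouse 18S ribosomal RNA below 8 and were kept, and these came from 56 animal numbers. The single probe set annotated to Zfp979 alone stood above 5.3 in 31 of them and at or below 5.3 in 25. These Zfp979 values chose the groups and are given as a description, and the question asked was which other genes, near to Zfp979 or far from it, differed between the groups.

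Every animal carried the MMTV-PyMT transgene, in which the promoter of mouse mammary tumour virus drives the polyoma middle T oncogene in mammary epithelium, and the tumours arose spontaneously. The labels give one strain background for all samples, ((NZB x PyMT) x FVB) backcross, and form a single group, so the 2 groups compared here are defined by expression. No age, sex or genotype is given in the labels used here. The 2 Zfp979 levels are putatively the 2 genotypes a backcross leaves at this place, homozygous for the FVB allele or heterozygous with NZB, but which level belongs to which genotype is not known from these data. The tissue is bulk tumour, in which fewer cells of a type and less RNA per cell cannot be told apart.

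KRAB zinc finger proteins bind DNA through arrays of zinc fingers and recruit the corepressor Trim28, which brings in silencing enzymes. Many of them silence endogenous retroviruses and other mobile elements, and their genes lie in clusters that multiply and diverge quickly, so that inbred strains differ in them. Zfp979, also listed as Ssm1b, belongs to such a cluster and is known as a strain-specific modifier of the methylation of a transgene. The distal part of mouse chromosome 4 corresponds to the short arm of human chromosome 1, a region often lost in human tumours. In a backcross, long stretches of a chromosome are inherited together, and recombination parts genes that lie farther from each other more often.

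The start regions of several of these clustered genes are close copies of each other, and Zfp979 is shown beside its closest measured copy. In the RefSeq table of GRCm38.p6, whose sequence is that of the C57BL/6J strain and of neither parent here, the 300 bases around the start of Zfp979 (chr4:147642459-147642758, minus strand) and of its neighbour Rex2 (chr4:147021600-147021899, plus strand) were identical at 290 positions. Both are shown from 250 bases before to 50 bases after the start, with capitals for bases that differ between them or have no partner in the alignment:
Zfp979: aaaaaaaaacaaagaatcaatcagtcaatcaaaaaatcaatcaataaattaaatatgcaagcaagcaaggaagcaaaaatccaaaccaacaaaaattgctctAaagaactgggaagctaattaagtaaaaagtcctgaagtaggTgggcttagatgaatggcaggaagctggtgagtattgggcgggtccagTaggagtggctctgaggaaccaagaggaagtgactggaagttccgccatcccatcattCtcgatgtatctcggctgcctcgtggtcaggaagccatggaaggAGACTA
Rex2: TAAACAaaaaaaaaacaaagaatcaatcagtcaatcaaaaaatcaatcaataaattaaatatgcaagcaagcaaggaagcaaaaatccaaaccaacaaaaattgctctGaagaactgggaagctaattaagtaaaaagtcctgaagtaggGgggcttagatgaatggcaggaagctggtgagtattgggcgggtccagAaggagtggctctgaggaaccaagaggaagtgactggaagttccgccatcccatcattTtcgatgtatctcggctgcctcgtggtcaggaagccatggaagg
Of 15 other cluster genes with a start region in the table, 7 were at least 80% identical to Zfp979 over this window. Zfp600 matched it at 289 positions, Zfp980 at 273 and Zfp982 at 264, while Zfp993 matched at 126. These figures are about the start region and say nothing about the transcript sequence that the probes match, which was not examined.

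The Zfp979 level ranged from 5.56 to 7.20 with a median of 6.64 in the high tumours, and from 3.52 to 5.03 with a median of 3.96 in the low tumours, as log2 RMA values. The means were 6.58 ± 0.39 (SD, n = 31) and 4.11 ± 0.44 (SD, n = 25). No tumour lay between 5.03 and 5.56. The 3 tumours nearest below the threshold had 4.77, 4.82 and 5.03, and the 3 nearest above it had 5.56, 5.85 and 5.98. As these values made the groups, no test applies to them.

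**Figure D1:**
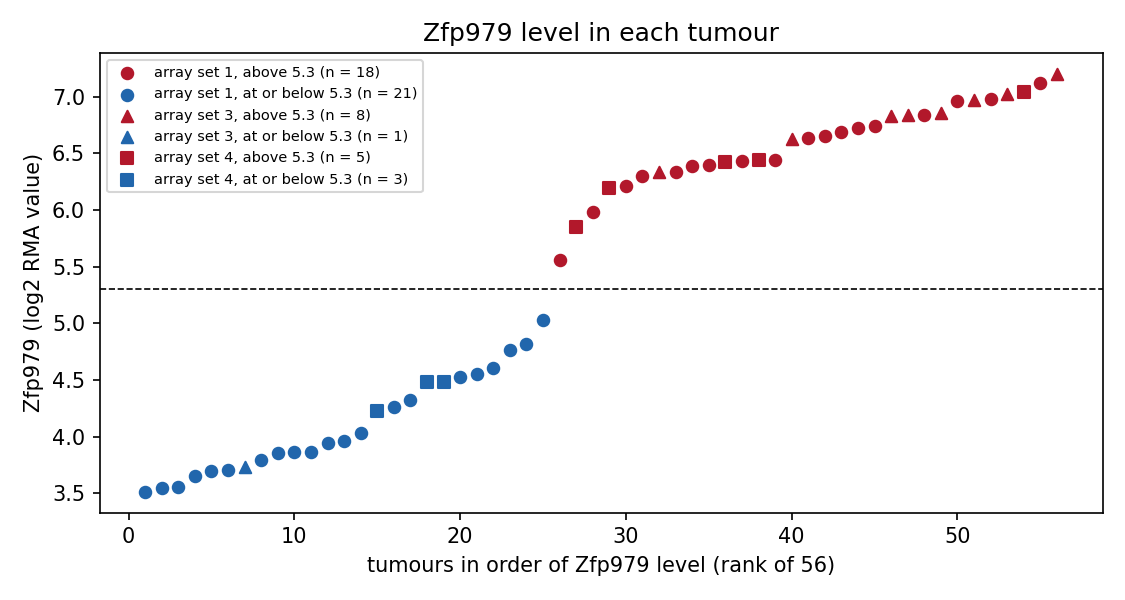
Zfp979 level (log2 RMA value, vertical axis) in each of the 56 tumours, ordered by that level (horizontal axis, rank), with the threshold of 5.3 dashed; colour gives the Zfp979 group and marker shape the array set. The 25 low tumours end at 5.03 and the 31 high tumours begin at 5.56, and 8 of the 9 arrays of set 3 are in the high group.

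The kept arrays fell into sets that share shifts in small numbers of probe sets spread over many chromosomes: 9 arrays formed set 3 (44 probe sets), 8 formed set 4 (121 probe sets) and the other 39 formed set 1. The sets were found in the values and no label names them, but they were linked to the animal numbers. Every kept array whose number carries the suffix R was in set 3, and every array of set 4 had a number over 4000. The suffix was on 7 arrays of the high group and 1 of the low group, and what it stands for is not given. The high group held 18 arrays of set 1, 8 of set 3 and 5 of set 4, and the low group held 21, 1 and 3. The 3′ minus 5′ difference of Gapdh, a measure of RNA integrity, was -0.01 ± 0.14 (SD, n = 31) in the high group and -0.09 ± 0.10 (SD, n = 25) in the low group, and that of Actb was 0.89 ± 0.20 and 0.87 ± 0.23. The luminal keratins and other luminal markers were well expressed, with a mean level over 13 tested markers of 9.21 to 10.40 in high and 9.75 to 10.33 in low tumours. The part of the array set and of RNA integrity in the differences was not tested beyond the values with array set as a block and within set 1 given below.

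Outside Zfp979 itself, the 2 groups differed at few genes, and nearly all of these lay on chromosome 4. Snhg12, the host gene of several small nucleolar RNAs, and Rbp7, a cellular retinol-binding protein, were 2.44-fold and 2.49-fold higher in the high tumours. A pseudogene beside Zfp979 was lower, and a zinc finger gene there was lower through 1 probe set and higher through another. limma called 20 of 12561 genes (0.159%) at a Benjamini-Hochberg adjusted p under 0.05, 10 higher (0.0796%) and 10 lower (0.0796%) in the high group. Within 10 Mb of Zfp979, 9 of 174 genes were called (5.17%), on the rest of chromosome 4 it was 9 of 604 (1.49%), and on the other chromosomes 2 of 11740 (0.017%). With array set as a block, 31 genes were called (0.247%), 17 of them shared with the fit without it, and within set 1 alone 18 were called (0.143%), 13 of them shared. With the first 3 principal components of genes off chromosome 4 as terms, 52 were called (0.414%), 18 of them on other chromosomes. The values of every called gene overlapped between the groups. A gene was tested where its 95th percentile exceeded 5.42. Of the 20, 3 (Gm13238, Rab42 and Trnp1) met this only through the group where they are high, and the counts of called genes include them.

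For the zinc finger cluster, 40 names were listed. Of these, 7 had a probe set of their own, among them Zfp979 itself and Zfp983 of chromosome 17. Besides Zfp979, 3 passed the filter on dim probe sets. The level of Zfp991, a KRAB zinc finger gene 0.48 Mb from Zfp979, ranged from 4.53 to 6.85 with a median of 5.71 in high tumours and from 5.84 to 7.48 with a median of 6.16 in low tumours. The groups overlapped, but 24 of the 31 high tumours lay below every low tumour. The difference was -0.68 (SE 0.11, limma adjusted p = 0.000255).

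The second brightest probe set of Zfp991 went the other way. Its level ranged from 5.66 to 6.52 with a median of 5.99 in high tumours and from 4.72 to 5.78 in low tumours, with a mean of 5.24 ± 0.32 (SD, n = 25), so that the groups overlapped only at their edges. Its difference was +0.80 (SE 0.07, limma adjusted p = 1.57e-11 with every probe set tested). The direction of Zfp991 therefore depends on the probe set, and whether either probe set also reads other members of the cluster was not tested.

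The pseudogene Znf41-ps, 1.82 Mb from Zfp979, ranged from 4.64 to 6.54 (mean 5.49 ± 0.46) in high tumours and from 5.62 to 7.52 (mean 6.12 ± 0.45) in low tumours. The groups overlapped, and 19 of the 31 high tumours lay below every low tumour, a difference of -0.64 (SE 0.12, limma adjusted p = 0.00165). Gm13238, an unnamed neighbour at 1.77 Mb, ranged from 3.23 to 4.98 (median 4.01) in high and from 3.94 to 6.23 (median 4.82) in low tumours. Its difference was -0.74 (SE 0.14, limma adjusted p = 0.00159), and within set 1 alone its adjusted p was 0.0934. It passed the filter through 3 low tumours and 0 high ones, so it entered the test only through the group where it is high. Zfp982, the third tested cluster gene, did not pass (+0.06, SE 0.20, adjusted p = 0.949).

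The other measured cluster members were too dim for the filter and had similar means in both groups. Rex2, with the near-identical start region shown above, had a level of 2.76 ± 0.11 (SD, n = 31) in high and 2.73 ± 0.09 (SD, n = 25) in low tumours. Zfp980 had 3.31 ± 0.17 and 3.32 ± 0.18. Zfp983, which the reference places on chromosome 17 although it was listed with the cluster, had 4.18 ± 0.27 and 4.18 ± 0.21.

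Fv1, a gene derived from an endogenous retrovirus whose product restricts murine leukaemia viruses, lies 0.26 Mb from Zfp979. It was too dim for the filter and is named here after its values were seen. Its level ranged from 4.12 to 5.20 with a median of 4.72 in high tumours and from 4.01 to 4.43 with a median of 4.27 in low tumours. The groups overlapped through 1 high tumour, and the other 30 stood above every low tumour. Without the filter its difference was +0.47 (SE 0.05, limma adjusted p = 7.14e-10, 22 of 18193 genes called, 0.121%).

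Several other neighbours within 10 Mb were called, among them a retinol carrier, an actin-capping subunit and a pyrimidine salvage enzyme. Rbp7 ranged from 6.88 to 10.47 with a median of 9.01 in high tumours and from 6.30 to 8.86 with a median of 7.52 in low tumours. The groups overlapped, and 17 of the 31 high tumours stood above every low tumour. The high group was 2.49-fold higher (difference +1.31, SE 0.21, limma adjusted p = 0.000123).

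Capzb, the beta subunit of the protein that caps the fast-growing ends of actin filaments, ranged from 10.37 to 10.88 (median 10.55) in high and from 9.86 to 10.67 (median 10.27) in low tumours. Its difference was +0.32 (SE 0.04, limma adjusted p = 2.35e-06). Its 2 other bright probe sets did not pass (adjusted p = 0.466 and 0.697 with every probe set tested), so the difference rests on one probe set.

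Rnf207, a RING finger protein gene at 4.69 Mb, was lower in the high group. It ranged from 4.29 to 7.11 (median 6.24) in high and from 6.16 to 7.52 (median 7.02) in low tumours, a difference of -0.70 (SE 0.12, limma adjusted p = 0.000589). Its second probe set did not pass (-0.17, adjusted p = 0.372 with every probe set tested). Clcn6, a chloride-proton exchanger of late endosomes at 0.39 Mb, was higher by 0.26 (SE 0.05, adjusted p = 0.00100), and its second probe set did not pass (+0.14, adjusted p = 0.449). Cda, which deaminates cytidine in pyrimidine salvage, was higher by 0.51 (SE 0.11, adjusted p = 0.0178). Its difference was +0.74 within array set 1, -0.06 within set 3 and +0.02 within set 4. Lzic, a small leucine zipper protein gene, was higher by 0.19 (SE 0.04, adjusted p = 0.0207), and with array set as a block its adjusted p was 0.108. Its second probe set did not pass (+0.14, adjusted p = 0.386). Among the 20 called genes, 7 had other tested probe sets, 9 in all, of which 1 passed in the same direction (Mecr), 1 in the opposite direction (Zfp991) and 7 did not pass.

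Gnb1, a beta subunit of heterotrimeric G proteins 7.88 Mb beyond Zfp979, is named after its values were seen because its probe sets part. The probe set with the highest mean did not pass (medians of 10.11 and 10.22, adjusted p = 0.442 with every probe set tested). The second brightest probe set ranged from 8.69 to 10.73 (median 9.78) in high and from 9.68 to 10.76 (median 10.55) in low tumours, and the dimmest had means of 6.05 and 6.75. Both passed with every probe set tested (limma adjusted p = 8.69e-05 for each, 29 of 22026 probe sets called, 0.132%). As for Zfp991, one gene gave different calls through different probe sets.

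**Figure D2:**
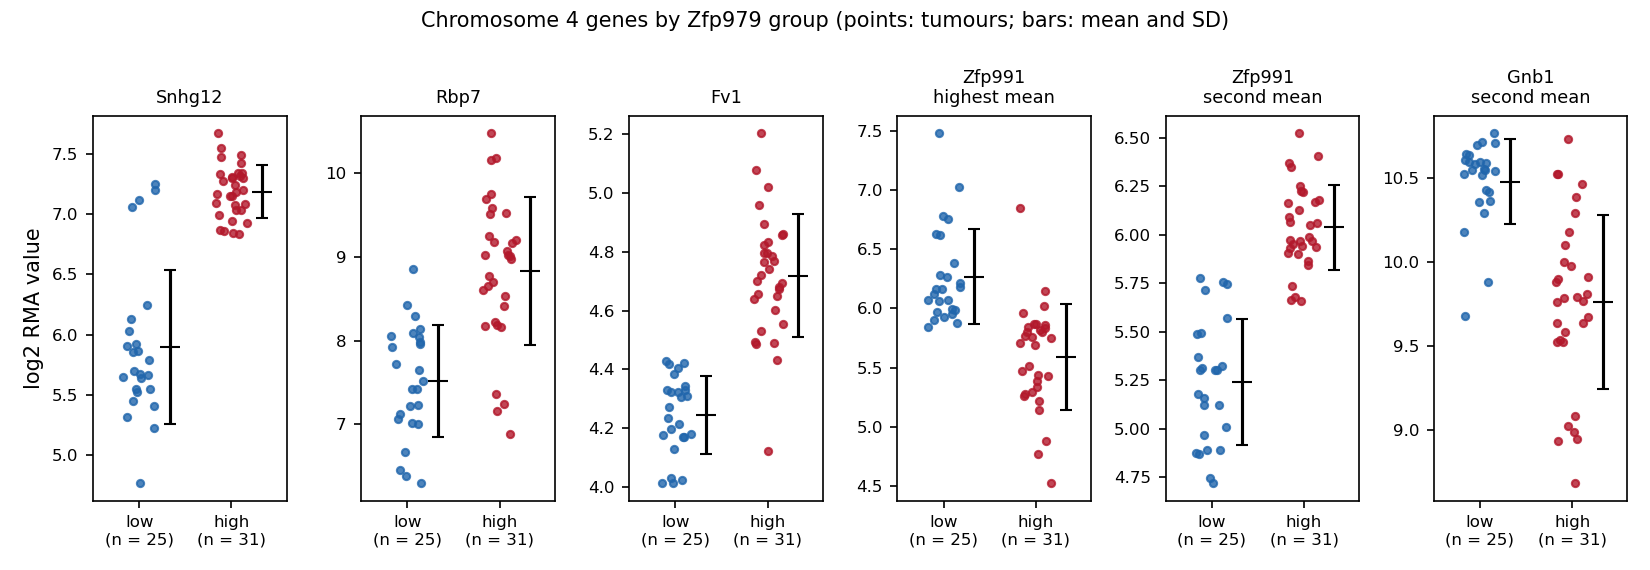
Log2 RMA values (vertical axes, each with its own range) in the 25 low and 31 high tumours for Snhg12, Rbp7, Fv1, the 2 bright probe sets of Zfp991 and 1 of Gnb1; points are tumours and bars give mean and SD. The 2 Zfp991 probe sets move in opposite directions, and 4 low tumours have Snhg12 at 7.06 to 7.25, among the high tumours.

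Of the genes listed as the mouse counterparts of the human 1p36 region, 61 were tested. Of these, 4 were higher (Rbp7, Clcn6, Cda and Lzic) and 0 were lower, a share of 6.56% beside 0.159% of all genes and 5.17% of all genes within 10 Mb, where 56 of the 61 lie. The share is near that of the neighbourhood. The median difference was -0.0022 beside -0.014 over all genes tested. In the fit with array set as a block, 4 were higher (Rbp7, Clcn6, Cda and Fbxo6) and 1 was lower (Fbxo44). Gnb1 also belongs to this list. Its brightest probe set did not pass, while its dimmer ones were lower with every probe set tested, as given above. Among 24 tested cofactors of KRAB repression, such as Trim28 and the histone methyltransferase Setdb1, 0 were called. The largest moderated t among them was that of Morc2a, a compacting ATPase of silenced chromatin (-0.13, SE 0.05, adjusted p = 0.444). Among 11 tested genes of retroviral restriction and related functions, 0 were called, and Apobec3, the antiretroviral deaminase, differed by +0.28 (SE 0.13, adjusted p = 0.539). Fv1 also belongs to this list, but it was too dim to be tested here and passed in the fit without the filter, as given above.

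Beyond 10 Mb, 7 of the 9 called genes lay between Extl1 (13.3 Mb) and Iqcc (18 Mb from Zfp979), on its centromeric side. Snhg12, 15.3 Mb away, had the smallest adjusted p in the comparison. Its level ranged from 6.83 to 7.67 with a median of 7.19 in high tumours and from 4.77 to 7.25 with a median of 5.70 in low tumours. The 31 high tumours all stood on the upper of its 2 levels, and 4 low tumours stood there too. The high group was 2.44-fold higher (difference +1.29, SE 0.12, limma adjusted p = 3.26e-11), with differences of +1.29, +1.39 and +1.63 within array sets 1, 3 and 4.

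Rab42, a Rab family GTPase gene next to Snhg12, went the other way. It ranged from 4.37 to 5.17 (median 4.77) in high and from 4.68 to 5.52 (median 5.14) in low tumours, with 14 high tumours below every low tumour. The difference was -0.42 (SE 0.06, limma adjusted p = 5.44e-06), and it passed the filter through 5 low tumours and 0 high ones. Cep85, a centrosomal protein gene, was higher by 0.45 (SE 0.07, adjusted p = 8.74e-05), although its second probe set did not pass (+0.17, adjusted p = 0.350) and within set 3, which has a single low array, it differed by -0.15. Trnp1, a nuclear protein gene known from neural progenitors, was higher by 0.49 (SE 0.09, adjusted p = 0.000606), and it passed the filter through 7 high tumours and 0 low ones.

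Mecr, an enzyme of mitochondrial fatty acid synthesis, had a difference of -0.35 (SE 0.06, limma adjusted p = 0.000478), and a second probe set was lower too (7.28 against 7.65, adjusted p = 0.00184 with every probe set tested), while another did not pass (-0.18, adjusted p = 0.840). Extl1, a glycosyltransferase of heparan sulphate, had a difference of -0.46 (SE 0.09, adjusted p = 0.00159). Iqcc was higher by 0.17 (SE 0.04, adjusted p = 0.0207), and with array set as a block its adjusted p was 0.0573. Gpbp1l1, a relative of a promoter-binding protein, lay 31.1 Mb away and had a difference of -0.43 (SE 0.07, adjusted p = 0.000379). Tceanc2, 40.5 Mb away, had a difference of -0.33 (SE 0.07, adjusted p = 0.00914). Within set 1 alone, Gpbp1l1, Extl1, Tceanc2 and Iqcc did not pass (adjusted p = 0.114, 0.068, 0.524 and 0.646).

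The share of called genes did not fall evenly with distance. Within 2 Mb of Zfp979, 6 of 32 tested genes were called (18.8%), between 2 and 5 Mb it was 1 of 36, and between 5 and 10 Mb 2 of 106. Between 10 and 20 Mb, 7 of 136 genes were called (5.15%), and with array set as a block 14 (10.3%). The count within 2 Mb includes Gm13238, and those between 10 and 20 Mb include Rab42 and Trnp1. These genes met the filter only through the group where they are high, so the shares are a description. Between 20 and 40 Mb, 1 of 161 was called, and beyond 40 Mb 1 of 307. All the tested genes more than 10 Mb away lay on the centromeric side of it.

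**Figure D3:**
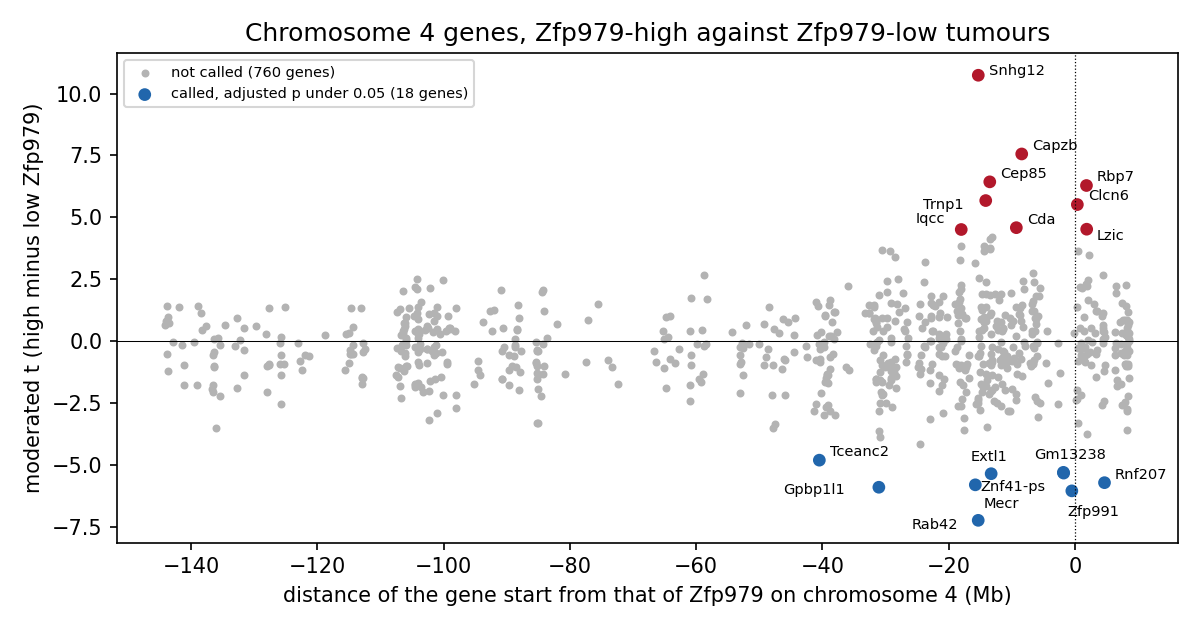
Moderated t of each tested chromosome 4 gene (vertical axis, high minus low Zfp979) against the distance of its start from that of Zfp979 in Mb (horizontal axis, negative towards the centromere). The 18 called genes are coloured (red higher, blue lower) and named, and stand near Zfp979 and around -15 Mb except Gpbp1l1 (-31.1 Mb) and Tceanc2 (-40.5 Mb), with Snhg12 highest.

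With array set as a block, 14 genes passed that had not passed without it. They are named after their values were seen: Fbxo6, Fbxo44, Selenon, Map3k6, Sh3bgrl3, Tmem222, Ptp4a2, Cnksr1, Col16a1, Hyi, Zfp593, Ccdc163 and Btbd19 on chromosome 4, and Klhl23 on chromosome 2. Fbxo6, a substrate-binding subunit of a ubiquitin ligase for glycoproteins 0.53 Mb from Zfp979, had the smallest adjusted p of these. It differed by +0.25 (SE 0.07, adjusted p = 0.171) without the block and by +0.32 (SE 0.04, limma adjusted p = 3.73e-06) with it. Selenon, a selenoprotein of the endoplasmic reticulum, differed by +0.47 (adjusted p = 0.0558) and by +0.49 (adjusted p = 4.09e-05). Col16a1, a collagen chain, had the largest moderated t in a list written for central chromosome 4. It lies 17.6 Mb from Zfp979, in the stretch between Extl1 and Iqcc. Col16a1 differed by -0.32 (adjusted p = 0.176) and by -0.33 (adjusted p = 0.014).

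The chromosome 4 genes were not on the same side in every tumour. When each called gene was divided into its own 2 levels by least squares, 20 of the 56 tumours were on the side of Zfp979 at all 9 called genes beyond 10 Mb, and 7 were at all 9 within 10 Mb. Single genes were off the side of Zfp979 in 6 to 20 tumours within 10 Mb and in 4 to 14 tumours beyond it. Because the values of the groups overlap and each gene is forced into 2 levels, these counts describe levels and not inheritance, which was not tested. At most of the genes within 10 Mb, 4 tumours were on the other side, 3 high ones and 1 low one. At most of the genes beyond 10 Mb, 5 tumours were on the other side. The 4 low tumours that stood on the upper level of Snhg12, at 7.06 to 7.25 against at most 6.24 in the other low tumours, were among these 5. They were off the side of Zfp979 at 6 to 8 of the 9 genes beyond 10 Mb and at 2 or 3 of the 9 within 10 Mb. The remaining tumour was a high one, off side at 5 of 9.

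**Figure D4:**
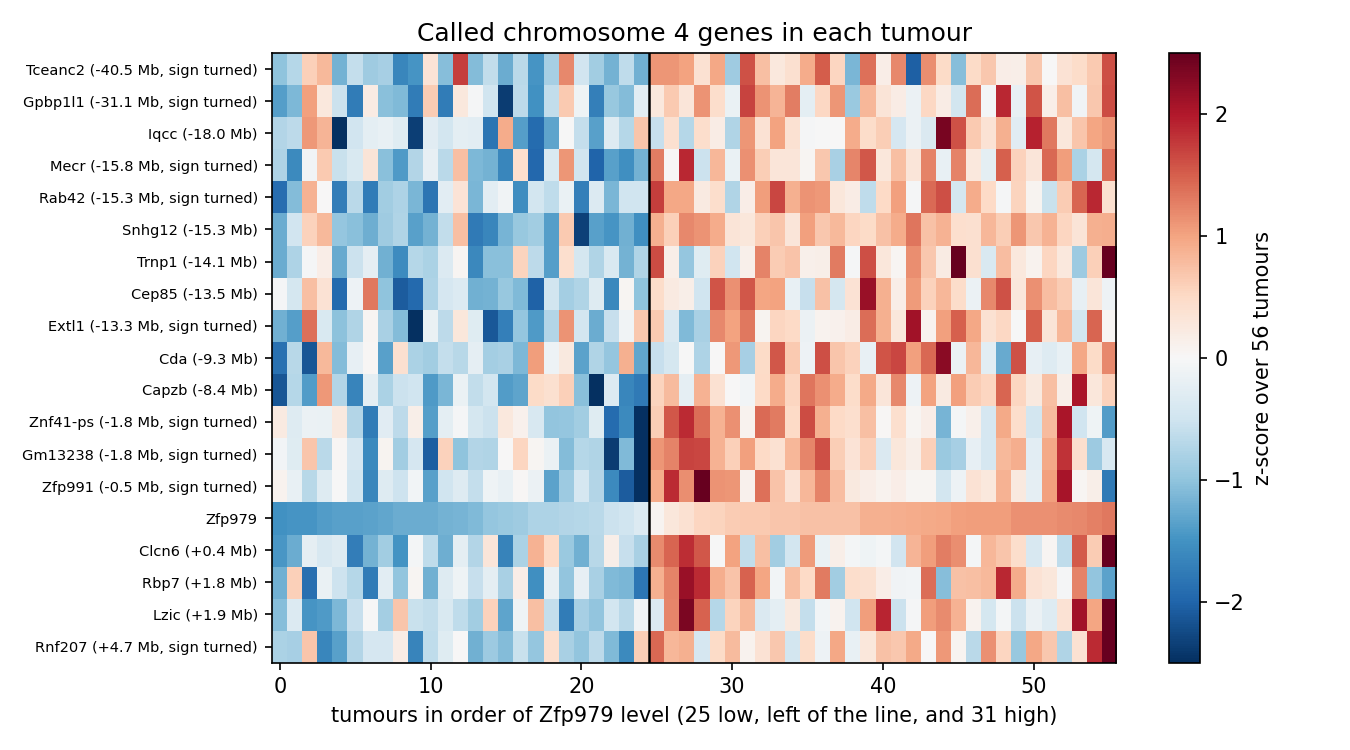
Level of each called chromosome 4 gene (rows, ordered by distance from Zfp979 in Mb, with Zfp979 in its place) as a z-score over the 56 tumours (columns, ordered by Zfp979 level); genes lower in the high group have their sign turned. In the rows around -15 Mb, 4 of the low tumours carry the colours of the high group, and the rows nearest to Zfp979 also hold exceptions, in other tumours and in both groups.

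Away from chromosome 4, 2 genes were called. Sfi1, a centrin-binding protein gene of chromosome 11, ranged from 5.50 to 7.93 (median 6.30) in high and from 5.25 to 6.21 (median 5.94) in low tumours, and 17 high tumours stood above every low tumour. Its difference was +0.59 (SE 0.11, limma adjusted p = 0.00159), and it passed with array set as a block (adjusted p = 0.0168) and within set 1 (adjusted p = 0.00757). Nudt1 of chromosome 5, which clears oxidised nucleotides, ranged from 7.61 to 8.40 (median 8.04) in high and from 7.85 to 8.65 (median 8.32) in low tumours. Its difference was -0.23 (SE 0.05, adjusted p = 0.00914), and with array set as a block its adjusted p was 0.108.

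Of 14 tested genes of other chromosomes that divide these tumours into 2 levels, 0 were called between the Zfp979 groups. The largest differences were those of D17H6S56E-5 (-0.79, SE 0.42, adjusted p = 0.584) and H2-Eb1, an MHC class II chain (-0.61, SE 0.33, adjusted p = 0.601), both of chromosome 17, and D730005E14Rik of chromosome 15 (+0.55, SE 0.24, adjusted p = 0.521). BC018473 and St6galnac1 of chromosome 11 differed by +0.26 and +0.09, Rbm45 and Aqr of chromosome 2 by +0.01 and -0.02, and Mir1931 of chromosome 10 by -0.30. Ifi202b, an interferon-inducible gene of chromosome 1, differed by +0.33, AI506816 by -0.17, Amhr2 by +0.06, Tnfsf13os by -0.08 and Rab1b by -0.12.

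In no list of cell type markers or of tumour processes did a gene pass the test. Among 15 skeletal muscle genes, 15 had a difference above 0, with a median of +0.34 and Myh1, a fast myosin heavy chain, at +0.64 (SE 0.66, adjusted p = 0.809). Their mean level ranged from 4.32 to 11.41 in high tumours and from 4.11 to 11.65 in low tumours, so the groups overlapped fully. Among 13 skin genes the median was +0.39, with Krt1, an epidermal keratin, at +0.60 (adjusted p = 0.634). Their mean level ranged from 4.29 to 9.71 in high and from 4.32 to 7.32 in low tumours.

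Among 15 interferon-stimulated genes, 15 had a difference above 0, with a median of +0.14, and Cxcl10, a chemokine for T cells, differed by +0.14 (SE 0.11, adjusted p = 0.723). Of 14 mitosis genes and 17 replication genes, 0 and 0 were above 0, with medians of -0.16 and -0.13. Mki67, the proliferation marker, differed by -0.19 (SE 0.07, adjusted p = 0.440) and Rfc4, a clamp loader subunit, by -0.20 (SE 0.08, adjusted p = 0.435). None of these passed, and the members of a list share their tumours, so their signs are not separate observations. Of 14 hypoxia genes the median was +0.12, with the vessel growth factor Vegfa at +0.28 (adjusted p = 0.672).

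The remaining lists also held 0 called genes. The milk genes had a median of -0.16, with the casein Csn1s2a at -0.61 (adjusted p = 0.697), and the adipocyte genes one of -0.26, with the adipokine Adipoq at -0.58 (adjusted p = 0.737). The salivary genes had a median of -0.41, with the amylase Amy1 at -0.54 (adjusted p = 0.710). The luminal, basal, fibroblast and endothelial genes had medians of -0.03, +0.14, -0.09 and -0.07, with Esr1 at -0.13, Oxtr at +0.24, Postn at -0.18 and Flt1 at +0.24. The macrophage, neutrophil, T and NK, and B and plasma cell genes had medians of -0.08, +0.22, +0.01 and -0.07, with Cd163 at -0.21, Camp at +0.22, Gzmb at +0.19 and Ighm at +0.11. The metastasis modifiers had a median of -0.0050, with Hopx at +0.25 (adjusted p = 0.469).

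The arrays left out by the 18S level were examined for the same genes. The 12 left out, whose 18S mean was 8.97 or above, formed an array set of their own, apart at 2434 probe sets. The mean SD of values over an array was 2.04 in them, against 2.32 in the high and 2.34 in the low group. Their mean 3′ minus 5′ difference of Actb was 1.23, against 0.89 and 0.87. The part of these differences in the slopes was not tested. Of the 12, 10 came from animals not among the 56. In these 10 the Zfp979 level ranged from 3.59 to 6.20, and each gene was regressed on it with limma. At an adjusted p under 0.05, 0 of 12561 genes passed (0.0%), and 928 did at an unadjusted p under 0.05 (7.39%). Of the 9 called genes within 10 Mb, 8 had the same sign, 4 of them at an unadjusted p under 0.05. Of the 9 on the rest of chromosome 4, 8 had the same sign, 5 of them at that level. Over all genes tested, 48.4% had the same sign, and 399 of 12561 had it at that level. The called genes share chromosome 4 and the same 10 arrays, so their signs are not separate observations. The counts include Gm13238, Rab42 and Trnp1, which met the filter only through the group where they are high.

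In these 10 arrays, Snhg12 ranged from 5.72 to 7.06, and it was higher where Zfp979 was higher. Its slope was +0.40 per log2 unit of Zfp979 (limma unadjusted p = 0.00366, not past the threshold after adjustment). The slope of Capzb was +0.22 (unadjusted p = 0.00929), of Rbp7 +0.66 (unadjusted p = 0.00668), of Rnf207 -0.46 (unadjusted p = 0.00435) and of Cep85 +0.50 (unadjusted p = 0.0016), all with the sign seen in the 56. That of Zfp991 was -0.02 (unadjusted p = 0.894). Sfi1 and Nudt1 kept their sign, with slopes of +0.03 and -0.03 and unadjusted p of 0.755 and 0.672.

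**Figure D5:**
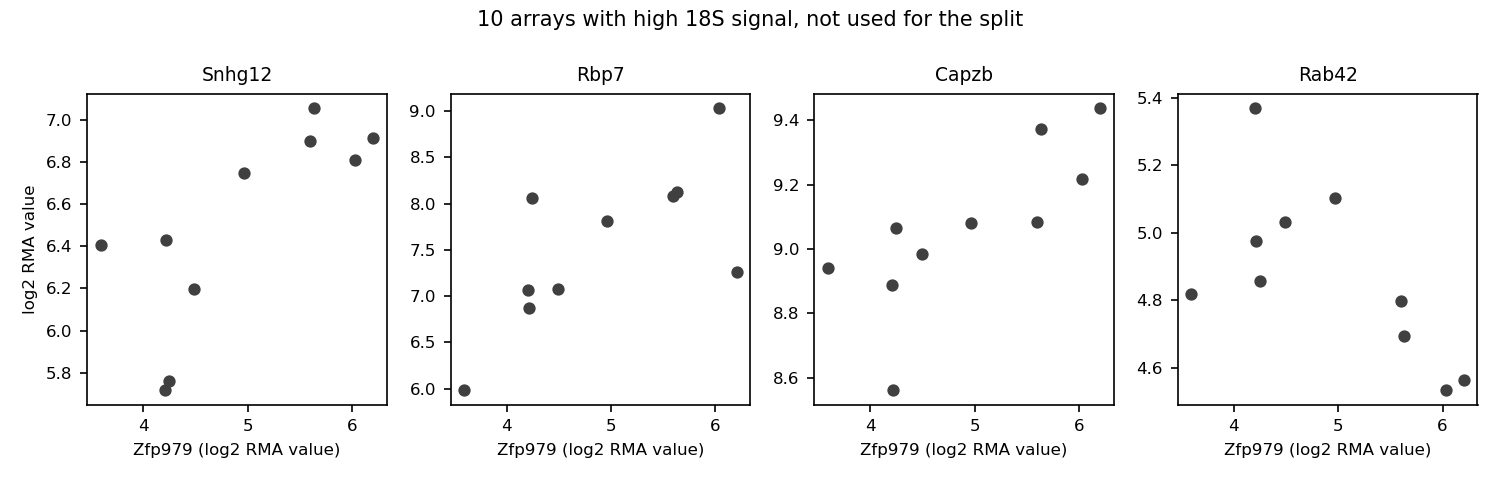
Log2 RMA values of Snhg12, Rbp7, Capzb and Rab42 (vertical axes) against that of Zfp979 (horizontal axes) in the 10 arrays left out for their 18S signal and from other animals; each point is an array. Snhg12, Rbp7 and Capzb are higher and Rab42 lower towards high Zfp979.

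The differences were also compared between the lower and the upper range of animal numbers, with 21 and 10 high tumours and 20 and 5 low ones. In an interaction term, limma called 0 of 12561 genes (0.0%), and 556 had an unadjusted p under 0.05 (4.43%). The smallest adjusted p was 0.0805. Within array set 1, 1 gene passed (0.00796%), Map2k3os of chromosome 11 (adjusted p = 0.0383), and 1527 had an unadjusted p under 0.05 (12.2%). The interaction within set 1 rests on 1 low array of the upper range, so no conclusion is drawn from its counts or from Map2k3os. Of 2 animal numbers with a second array among those left out, 1 had Zfp979 at 4.52 and 4.60, on the same side of 5.3. The other had 6.66 and 5.44, both above 5.3, but 5.44 lies between 5.03 and 5.56, where no kept tumour lay.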

How the data were processed

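Tumour RNA was hybridised to 1-colour Affymetrix arrays. The values are the authors' deposited log2 values from RMA, per the submitters' processing notes, and were used as deposited, with 45101 probe sets and no missing value. The array, annotation and genome builds are not given in the sources used here, so RefSeq's table of GRCm38.p6 served for names and neighbourhood. The brightest probe set on average stood for a gene, among 34958 probe sets with 1 gene (932 had several and 9211 were not listed). Genes whose 95th percentile exceeded 5.42, the median of all values, were tested. No counts lie behind array values, so the number of arrays limits precision.

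Zfp979-high and Zfp979-low tumours were compared with limma 3.58.1 in R 4.3.3 (lmFit and eBayes, two-sided, Benjamini-Hochberg over all genes). Python 3.11.15 made the tables. The fit was tested on simulated data. The samples, 1 array per animal number, were labelled as one group, and p-values measure the spread between tumours. Array sets were used as a block and singly. Alternatives covered number range, principal components, the threshold, probe set choice, filters, robust fitting and all arrays, and 2 were added after seeing the data. Named genes were the cluster members measured, called genes (at most 20 within 10 Mb, 10 on the rest of chromosome 4 and 20 elsewhere), up to 4 called members of each list or its largest moderated t, and the measured genes of other chromosomes with 2 levels. Any other gene is stated as chosen after its values were seen. The members and the 24 lists were chosen with earlier results of these data known, so no list is independent evidence.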

Additional observations from a re-analysis of the deposited data

How the results depend on the processing

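The count of called genes, 20 in the report, was 31 with array set as a block, 52 with 3 principal components as terms, 9 with the stricter filter and 12 within array set 1 with the Zfp979 level as a number. Within 10 Mb (9), it was 4 with the stricter filter and 5 within set 1 with the level as a number. On the rest of chromosome 4 (9), it was 19 with the block, 15 with number range and suffix R as terms, 22 with principal components, 4 with the stricter filter and 14 without array set 3, and with every probe set tested 14 probe sets of 13 genes passed. On other chromosomes (2), it was 18 with principal components, 1 with the stricter filter, 6 with all arrays and 1 within set 1 with the level as a number. Within set 1, the interaction with number range rests on 1 low array of the upper range, so its count is not compared here. Fitting within set 1 with the level as a number, and leaving out set 3, were chosen after seeing the data. The stricter filter tests fewer genes, 8271, and the cause of the other changes was not tested.

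Of the 20 called genes, Snhg12, Cda, Cep85, Rab42, Rnf207, Sfi1 and Trnp1 passed under every alternative in which they were tested. This holds for the brightest probe set of each, and the second probe sets of Cep85 and Rnf207 did not pass with every probe set tested. None of these fits left out set 1. Cda differed by +0.74 within set 1, but by -0.06 within set 3 and +0.02 within set 4. Cep85 differed by -0.15 within set 3, which has 1 low array, while the others named kept their sign in each set. Rab42 and Trnp1 met the filter, which most of these fits share, only through the group where they are high. Lzic, Iqcc and Nudt1 did not pass with the block, with number range and suffix R, within set 1 or without set 3, and Tceanc2 did not pass within set 1 or without set 3. Gm13238, Gpbp1l1 and Extl1 did not pass within set 1, and 10 of the 20 did not pass within set 1 with the level as a number. Zfp991, Gm13238, Znf41-ps and Tceanc2 did not pass with the Zfp979 level as a number. Capzb, Clcn6 and Mecr did not pass with the probe set of largest SD. No called gene changed sign among those tested in these fits, except through another probe set. With every probe set tested, the second brightest of Zfp991 passed at +0.80, against -0.68 for the brightest. Differences of named genes that did not pass changed sign in some fits. With array set as a block, Zfp982 differed by -0.0782, St6galnac1 by -0.000623, Rbm45 by -0.15 and Rab1b by +0.0925. With number range and suffix R as terms, Zfp982 differed by -0.0791, Rbm45 by -0.17 and Rab1b by +0.0632. Without array set 3, Zfp982 differed by -0.0226, Rbm45 by -0.12, Tnfsf13os by +0.0161 and Rab1b by +0.11. With the Zfp979 level as a number, BC018473 differed by -0.0911, St6galnac1 by -0.0385, Aqr by +0.00139, Amhr2 by -0.000142 and Tnfsf13os by +0.0316. Within set 1 with the level as a number, St6galnac1 differed by -0.0284, Rbm45 by -0.00443, Aqr by +0.00918, Amhr2 by -0.0196, Tnfsf13os by +0.0521, Rab1b by +0.0215 and Cxcl10 by -0.00229. With principal components, Rbm45 differed by -0.0253. Within array set 1, Aqr differed by +0.0161 and Rab1b by +0.10. With all arrays, Aqr differed by +0.0314. Without tumours near the threshold, Tnfsf13os differed by +0.0817. With the probe set of largest SD, Csn1s2a differed by +0.0129 and Ighm by -0.0761. No paired analysis was possible because the groups share no replicate numbers: each animal number is in 1 group.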

Other observations

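Some genes passed only in a fit other than that of the report and are named after their values were seen. 9930104L06Rik, a dim gene 22.7 Mb from Zfp979, had a level of 5.01 ± 0.24 (SD, n = 31) in high and 4.47 ± 0.31 (SD, n = 25) in low tumours, and passed without the filter (limma adjusted p = 2.58e-06). Pigv, a mannosyltransferase of GPI anchor synthesis, stood at 5.51 and 5.16 through its dimmer probe set (limma adjusted p = 8.69e-05 with every probe set tested), while its brighter one did not pass (6.60 and 6.67, adjusted p = 0.630). Foxj3, a forkhead factor, stood at 6.49 and 6.77 through one probe set (adjusted p = 0.00289), while a brighter one did not pass (9.10 and 8.99, adjusted p = 0.438). Pink1, a mitochondrial kinase, stood at 6.39 and 6.09 through one probe set (adjusted p = 0.0326), while a brighter one did not pass (8.39 and 8.38, adjusted p = 0.971).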
